A study of Mus musculus with 9 samples.

Results

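The genes described here are the 3 SoxC transcription factor genes, Sox4, Sox11 and Sox12, and 7 genes of immature neurons, Dcx, Tubb3, Stmn1, Stmn2, Crmp1, Dpysl3 and Gap43. They were taken by symbol, 10 of the 55487 genes measured by bulk RNA sequencing of the mouse retina at postnatal day 21 (P21), and all 10 passed the filter on low values. The genes were chosen by name with the outcome of the Tet tcKO comparisons already known. Their values in those comparisons are therefore given as a description and not as a test.

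SoxC factors are closely related HMG-box transcription factors. In the embryonic retina and brain they are expressed by progenitors leaving the cell cycle and by newborn neurons, where they promote neuronal differentiation, and in the retina Sox4 and Sox11 are best known for their part in making ganglion cells. The other genes encode proteins that shape the growing axon and dendrite. Doublecortin and class III beta-tubulin are in microtubules, and the stathmins bind tubulin subunits. The collapsin response mediator proteins are in the growth cone, and GAP-43 is at the growth cone membrane. Several of these genes, such as Tubb3, Stmn2 and Gap43, also stay on in mature retinal neurons with long processes, ganglion cells above all.

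The study asked what the retina lacks when the TET enzymes, which oxidise 5-methylcytosine and so start active DNA demethylation, are removed from retinal progenitor cells (RPCs). Whole retinas (strain label C57 BL/6J) were compared in 3 genotypes with 3 libraries each, with retinas of 2 animals pooled per library. Cre- controls carried no Cre and are labelled WT. The tHet retinas were Tet1 loxp/+, Tet2 loxp/+ and Tet3 loxp/+ with the Chx10::Cre-GFP transgene, and Tet tcKO retinas were loxp/loxp at all of these genes with the same transgene. This transgene drives Cre in RPCs and is mosaic, so Cre+ animals were in-crossed to carry 2 copies. Cre- animals lack the transgene and came from Cre- breeders. A loss of Tet alleles, the transgene and the breeding line therefore cannot be told apart in a difference between Cre- and either other genotype. In bulk tissue, a change in the number of cells of a type and a change in the RNA per cell cannot be told apart either.

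Levels are given as CPM, the reads on a gene scaled to the same fixed total of reads on all genes in every library. The libraries held 9627927 to 21108256 reads on genes, so 1 read was worth 0.0474 to 0.104 CPM. Library 3 of Tet tcKO stood apart: 28.7% of its reads fell on the ribosomal RNA gene CT010467.1, against 3.72% in tHet library 3 and 0.0409% to 0.226% in the other 7, which lowers the CPM of every other gene there. Leaving CT010467.1 out of the totals left the Cre- values almost as they were but raised Sox4 in Tet tcKO library 3 from 152 to 213 CPM, and it moved the median log2 fold change of all genes in Tet tcKO versus Cre- from 0.00 to 0.14. Values on this second scale are given where they alter an order or a call. Reads over the deleted exons were not counted separately. At the level of whole genes, Tet3 was at 99.2 to 152 CPM in Tet tcKO and 213 to 268 in Cre-, whereas Tet1 (51.0 to 74.9 against 51.7 to 57.6 CPM) and Tet2 (152 to 221 against 113 to 188) overlapped.

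The SoxC genes are compact. On mouse GRCm38, Sox4 is a single exon of 4795 bases at chr13:28948919-28953713 on the minus strand, Sox11 a single exon of 8311 bases at chr12:27334264-27342574, also minus, and Sox12 spans chr2:152393611-152398063 on the minus strand. Of the other genes, 6 lie at chrX:143855842-143933311 (Dcx, minus strand), chr8:123411424-123422015 (Tubb3, plus), chr4:134468320-134473843 (Stmn1, plus), chr3:8509360-8561606 (Stmn2, plus), chr5:37241940-37292133 (Crmp1, plus) and chr16:42248442-42340651 (Gap43, minus). Because DNA methylation in mammals sits on CpG dinucleotides, the promoters of the SoxC genes are shown with every CpG in capitals, from 250 bases before to 50 bases after the RefSeq start (GRCm38.p6), 5′ to 3′ along the gene. The windows are chr13:28953650-28953949, chr12:27342669-27342968 and chr2:152397997-152398296, all on the minus strand.
Sox4: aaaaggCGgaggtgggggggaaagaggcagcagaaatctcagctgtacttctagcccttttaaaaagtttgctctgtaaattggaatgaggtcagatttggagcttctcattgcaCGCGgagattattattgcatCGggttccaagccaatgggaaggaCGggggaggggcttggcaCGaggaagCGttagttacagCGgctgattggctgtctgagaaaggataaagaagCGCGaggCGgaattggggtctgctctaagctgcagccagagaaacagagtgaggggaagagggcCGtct
Sox11: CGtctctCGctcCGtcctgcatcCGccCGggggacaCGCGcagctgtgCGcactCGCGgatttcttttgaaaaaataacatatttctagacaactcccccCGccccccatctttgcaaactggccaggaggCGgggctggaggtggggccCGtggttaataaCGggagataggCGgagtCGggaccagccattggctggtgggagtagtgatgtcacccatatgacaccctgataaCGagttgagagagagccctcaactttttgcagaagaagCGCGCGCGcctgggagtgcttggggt
Sox12: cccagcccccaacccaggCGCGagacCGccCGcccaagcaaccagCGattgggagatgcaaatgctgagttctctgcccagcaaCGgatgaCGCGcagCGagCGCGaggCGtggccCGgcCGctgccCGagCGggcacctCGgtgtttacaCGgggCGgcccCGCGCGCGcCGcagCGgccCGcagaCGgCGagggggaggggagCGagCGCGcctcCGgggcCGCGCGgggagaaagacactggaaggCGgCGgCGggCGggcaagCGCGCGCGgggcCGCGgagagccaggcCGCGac

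These windows differ in CpG content. Sox4 has 12 CpGs in its 300 bases, a number that 39.6% of the 32851 RefSeq mouse promoter windows reach or exceed, and a GC content of 52.0%. Sox11 has 21 CpGs (24.8% of windows reach this) and Sox12 has 47 (1.44% reach this), while the median window has 7. The CCAAT motif, read on both strands, occurs 4 times in the Sox4 window and once each for Sox11 and Sox12, and 37.4% of all windows hold at least 1. ACAAAG, one form of the SOX consensus, is in none of these SoxC windows on either strand and is in 18.7% of all windows. Windows were found for 6 of the 10 genes: Tubb3 has 26 CpGs, Crmp1 has 41 and 20 at its pair of starts, and Dcx has 3 at both of its own. Methylation itself was not analysed here.

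Sox4, which encodes the SoxC factor with the most reads in the retina, was 78.8, 57.3 and 90.7 CPM in the Cre- libraries, 68.1, 92.8 and 106 CPM in tHet, and 279, 158 and 152 CPM in Tet tcKO. All Tet tcKO libraries lay above all 6 others, with library 1 far above the rest, and Cre- and tHet interleaved. The means were 75.6 ± 16.9, 89.0 ± 19.3 and 196 ± 71.6 CPM (SD, n = 3 each). The log2 fold change of log2(CPM + 0.5) was 1.34 (SE 0.26) against Cre- and 1.10 (SE 0.26) against tHet.

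Sox11, the SoxC gene with the lowest level, was 6.77, 7.13 and 5.74 CPM in Cre-, 5.83, 10.2 and 7.44 CPM in tHet, and 30.1, 19.6 and 15.4 CPM in Tet tcKO. Again the Tet tcKO libraries exceeded all others. These values rest on 81 to 157 reads per control library and 255 to 507 per Tet tcKO library. The means were 6.54 ± 0.72, 7.82 ± 2.20 and 21.7 ± 7.59 CPM, and the log2 fold change was 1.61 (SE 0.29) against Cre- and 1.40 (SE 0.29) against tHet.

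Sox12, the remaining SoxC gene, was 26.4, 30.0 and 34.8 CPM in Cre-, 39.2, 39.2 and 41.9 CPM in tHet, and 54.9, 45.1 and 34.1 CPM in Tet tcKO. Here the Tet tcKO libraries spread over both other groups, and the low one was library 3. Against Cre- its log2 fold change was 0.53 (SE 0.22, 95% interval 0.07 to 1.00), and against tHet 0.13 (SE 0.22, 95% interval -0.33 to 0.59). With CT010467.1 out of the totals, Tet tcKO read 54.9, 45.1 and 47.9 CPM, above all Cre- libraries (26.4 to 34.9) and all tHet libraries (39.2 to 43.5). The scale thus decided whether the groups overlapped for Sox12, whereas Sox4 and Sox11 were separated on both scales.

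**Figure D1:**
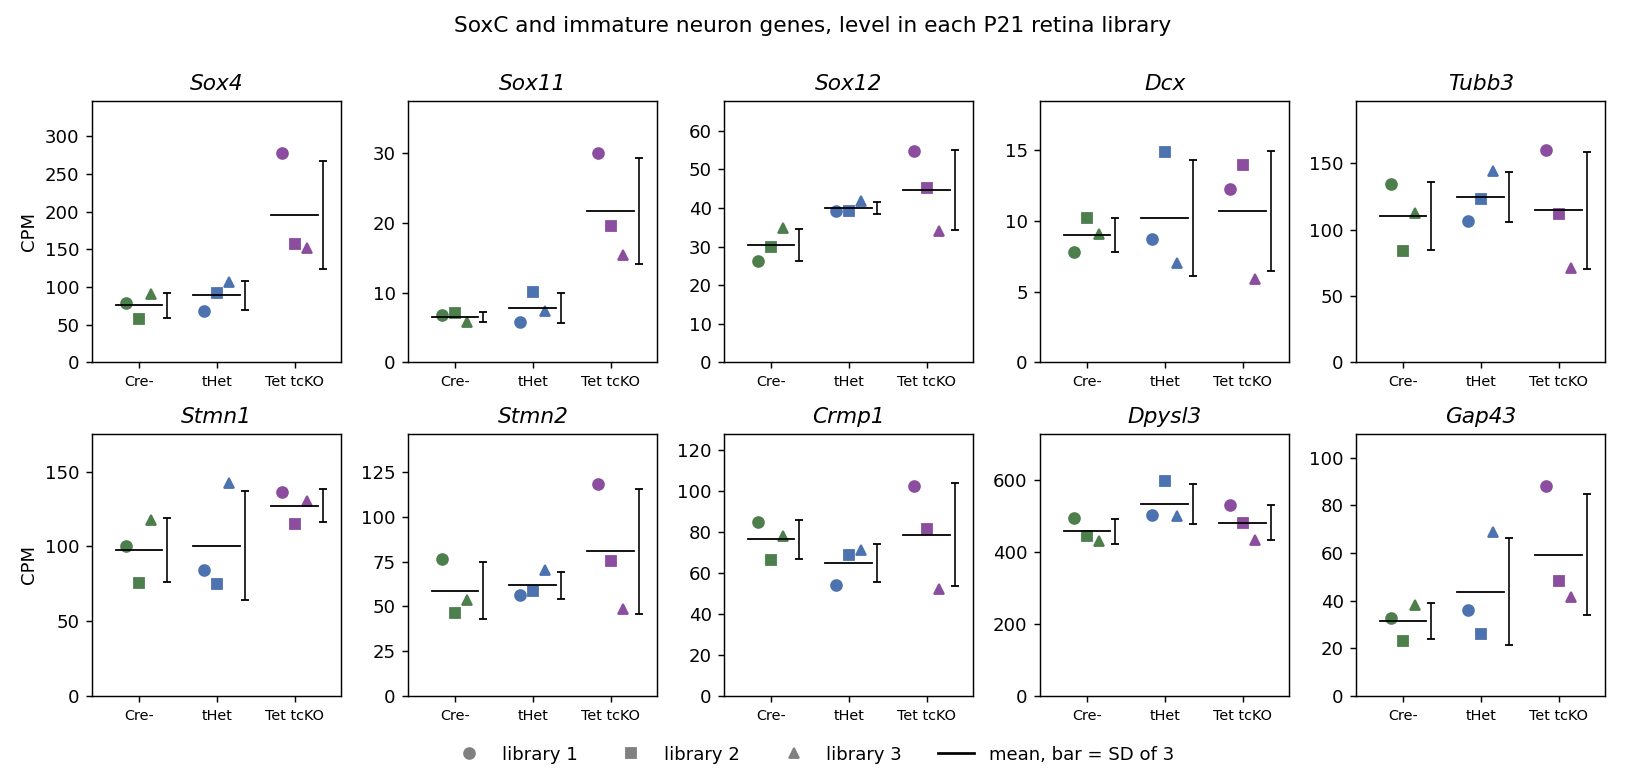
Each panel plots the CPM of 1 gene (linear axis from 0) in the 9 libraries, grouped by genotype; circles, squares and triangles are libraries 1, 2 and 3, the horizontal line is the mean and the bar the SD of 3 libraries. For Sox4 and Sox11 the 3 Tet tcKO libraries sit above all others, while for Dcx, Tubb3, Crmp1 and Dpysl3 the genotypes overlap.

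A gene was called when its absolute log2 fold change was at least 1 and its adjusted p was under 0.01 (limma, adjusted over 21330 tested genes). In Tet tcKO versus Cre-, 2 of the 10 genes were called, Sox4 and Sox11, both higher, beside 2.03% of all tested genes called higher and 1.57% called lower. With the replicate number as a block and only these 6 libraries, the same 2 genes were called, beside 3.89% higher and 3.17% lower. In Tet tcKO versus tHet, 1 of 10 was called, Sox11, beside 1.39% called higher and 1.61% called lower among all genes. Nothing is read from these counts, since the genes were selected on these contrasts. Sox4 kept its call against Cre- in 16 of 20 other settings and Sox11 in 18 of 20, and against tHet Sox4 was called in 7 and Sox11 in 15. Tet tcKO library 1 mattered most: without it, Sox4 was 1.05 (adjusted p 0.0265, limma) and Sox11 1.35 (adjusted p 0.0199) against Cre-, and neither was called.

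The calls also moved with other single libraries. Against Cre-, Sox4 lost its call without Cre- library 2 (log2 fold change 1.15) or Tet tcKO library 3 (1.49), and Sox11 without Cre- library 3 (1.52). Against tHet, Sox11 lost its call without tHet library 1 (1.22), Tet tcKO library 1 (1.14), Tet tcKO library 2 (1.44) or Tet tcKO library 3 (1.61), and Sox4 gained one without Cre- library 1, Cre- library 2 (both 1.10) or tHet library 3 (1.24). With CT010467.1 left out, Sox4 was 1.50 and Sox11 1.77 against Cre-, and 1.24 and 1.54 against tHet, and both were called in both comparisons.

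**Figure D2:**
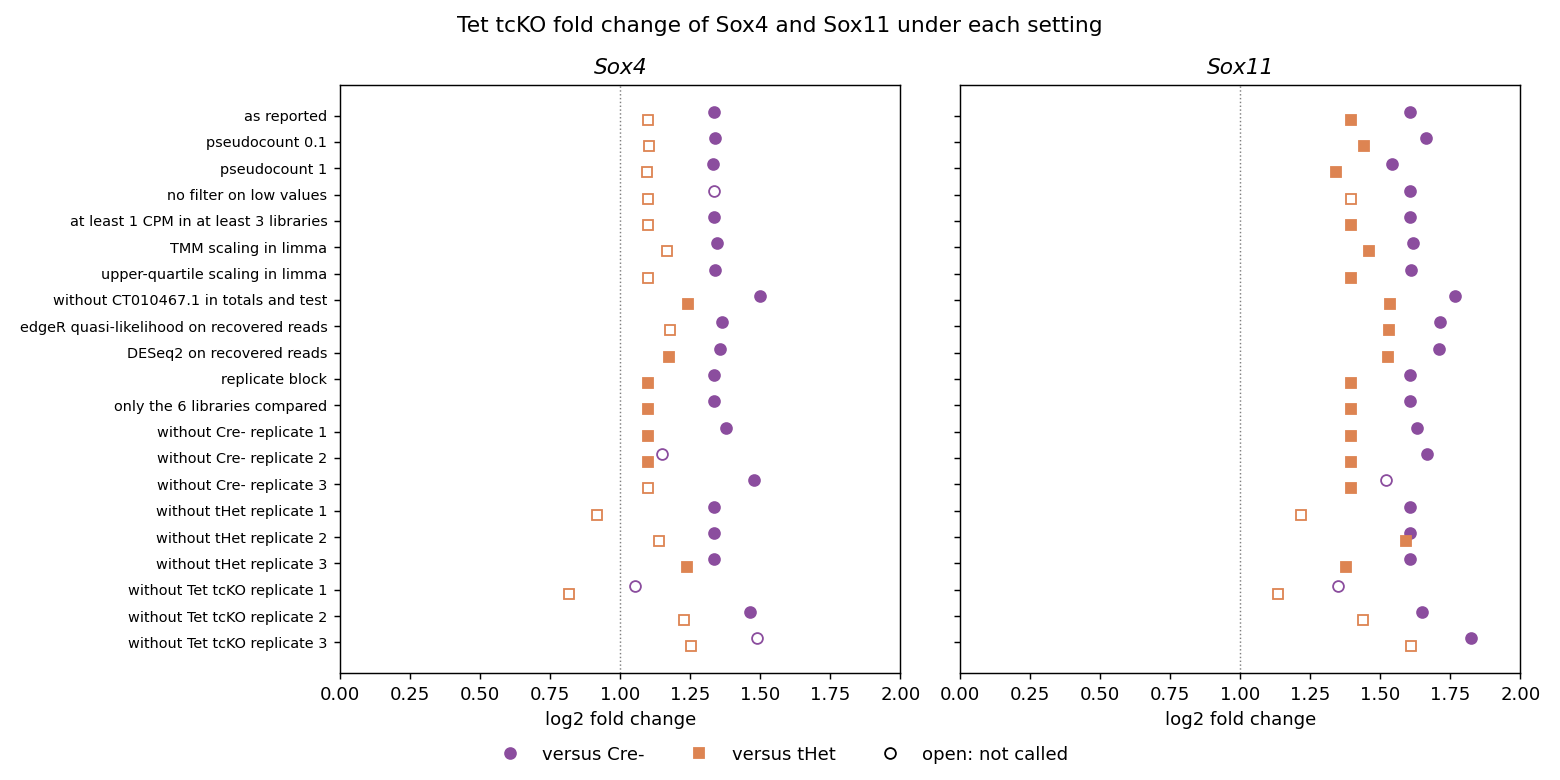
The log2 fold change (horizontal axis) of Sox4 and Sox11 in Tet tcKO is plotted for the reported fit and each of 20 alternatives (rows), against Cre- (circles) and tHet (squares); filled symbols were called and the dotted line marks a log2 fold change of 1. Every point is above 0, the lowest being 0.82 for Sox4 against tHet without Tet tcKO library 1, and most open symbols are fits with a library left out or, for Sox4, fits against tHet.

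Among the microtubule genes, Dcx encodes doublecortin, a protein of migrating newborn neurons. It was 7.83, 10.2 and 9.05 CPM in Cre-, 8.71, 14.9 and 7.06 in tHet, and 12.3, 14.0 and 5.90 in Tet tcKO. The lowest of the 9 values was a Tet tcKO library, and the other Tet tcKO libraries lay below only tHet library 2. With CT010467.1 out of the totals, the lowest was instead tHet library 3 at 7.33 CPM, and Tet tcKO library 3 read 8.28. The log2 fold change against Cre- was 0.16 (SE 0.33), with a 95% interval of -0.53 to 0.85.

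Tubb3, class III beta-tubulin and a standard stain for neurons, was 135, 83.7 and 113 CPM in Cre-, 107, 123 and 144 in tHet, and 160, 112 and 71.4 in Tet tcKO. Both the highest and the lowest library were Tet tcKO. With CT010467.1 out of the totals, the lowest was instead Cre- library 2 at 83.7 CPM, and Tet tcKO library 3 read 100.2. The log2 fold change was 0.01 against Cre- (SE 0.26, 95% interval -0.54 to 0.56) and -0.19 against tHet (SE 0.26), so a change of 1 log2 unit in either direction against Cre- lies outside the interval.

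Stmn1, the widely expressed stathmin, was 100.0, 75.4 and 118 CPM in Cre-, 84.1, 75.0 and 142 in tHet, and 136, 115 and 130 in Tet tcKO. The Tet tcKO libraries were at the upper end, but Cre- library 3 and tHet library 3 lay among or above them. With CT010467.1 out of the totals, Tet tcKO library 3 was the highest at 183 CPM, beside 148 in tHet library 3. Its log2 fold change was 0.40 against Cre- and 0.40 against tHet (SE 0.24 for both). An annotated small RNA gene, Gm23634, shares 66 bases with Stmn1 on the same strand and was listed at 0 in all libraries.

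Stmn2, the neuronal stathmin of growth cones, was 76.7, 46.1 and 53.4 CPM in Cre-, 56.2, 58.7 and 70.1 in tHet, and 118, 75.5 and 48.5 in Tet tcKO. Only Tet tcKO library 1 lay above all other genotypes' libraries. Its log2 fold change was 0.40 (SE 0.27, 95% interval -0.17 to 0.97) against Cre- and 0.30 (SE 0.27) against tHet.

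Crmp1 and Dpysl3 encode collapsin response mediator proteins, which relay semaphorin signals to the growth cone. Crmp1 was 84.9, 66.1 and 78.0 CPM in Cre-, 54.3, 68.8 and 71.3 in tHet, and 102, 81.3 and 52.2 in Tet tcKO, with a log2 fold change against Cre- of 0.00 (SE 0.24, 95% interval -0.50 to 0.50). Dpysl3 was 496, 444 and 431 CPM in Cre-, 501, 598 and 500 in tHet, and 530, 480 and 433 in Tet tcKO, with a log2 fold change of 0.07 (SE 0.22, 95% interval -0.39 to 0.54). For Crmp1 both the highest and the lowest library were Tet tcKO, and for Dpysl3 the Tet tcKO libraries lay within the range of the controls. With CT010467.1 out of the totals, the lowest Crmp1 library was tHet library 1 at 54.4 CPM, and Tet tcKO library 3 read 73.2. Dpysl3 was then highest in Tet tcKO library 3, at 607 CPM beside 598 in tHet library 2.

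Gap43, a growth cone membrane protein gene, came nearest to Sox4 and Sox11. It was 32.7, 23.2 and 38.2 CPM in Cre-, 36.1, 26.1 and 68.9 in tHet, and 88.2, 48.0 and 41.3 in Tet tcKO. The Tet tcKO libraries all exceeded the Cre- libraries, while tHet library 3 lay between Tet tcKO libraries 1 and 2. The means were 31.3 ± 7.61, 43.7 ± 22.4 and 59.2 ± 25.4 CPM, and the log2 fold change was 0.86 (SE 0.32, 95% interval 0.19 to 1.52) against Cre- and 0.47 (SE 0.32, 95% interval -0.19 to 1.14) against tHet. It was not called in either comparison.

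**Figure D3:**
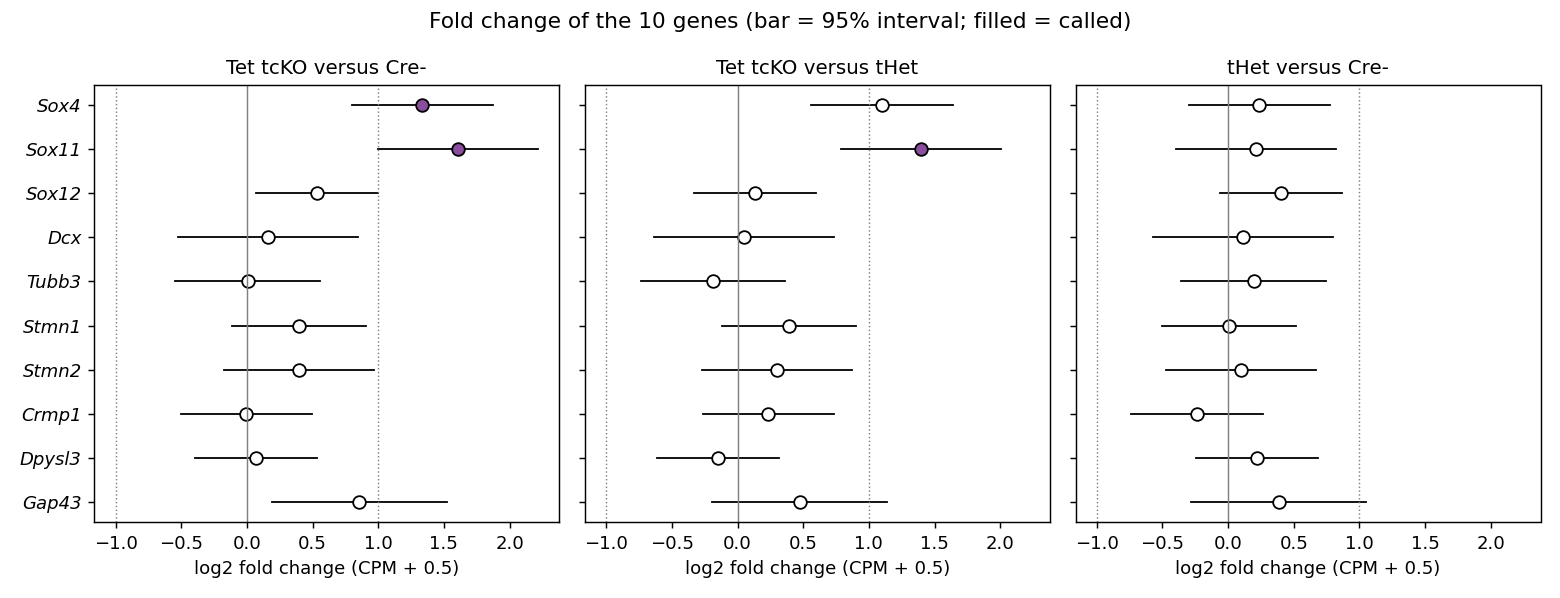
The log2 fold change of log2(CPM + 0.5) is plotted for the 10 genes in each comparison; bars are 95% intervals, filled circles were called, and dotted lines mark log2 fold changes of -1 and 1. Sox4 and Sox11 lie farthest to the right in both Tet tcKO comparisons, Gap43 follows at 0.86 against Cre-, and in tHet versus Cre- every interval crosses 0.

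Over the 10 genes, the median log2 fold change was 0.40 against Cre- and 0.27 against tHet, beside 0.00 and -0.06 over all tested genes. Sox4, Sox11 and Gap43 had every Tet tcKO library above every Cre- library, an order that 10.0% of all tested genes had. Against tHet only Sox4 and Sox11 did so among the 10, beside 7.35% of all genes. The Tet tcKO libraries are shared by the 2 comparisons. Among the Tet tcKO libraries, library 1 was the highest for 9 of the 10 genes, as for 38.5% of all tested genes, and library 3 the lowest for 9, as for 69.8%. With CT010467.1 out of the totals, library 1 was highest for 7 (30.2% of all genes), library 2 lowest for 6 (22.6%) and library 3 lowest for 4 (32.5%).

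The comparison of tHet with Cre- was the one least tied to the choice of the genes. In it, Tet dosage cannot be told apart from the transgene or the breeding line. In tHet versus Cre-, 0 of the 10 genes were called by limma, 0 at an unadjusted p under 0.05, and 0 by edgeR or DESeq2. Across all genes, 9 were called higher (0.0422%) and 0 lower (0.00%). The largest differences among the 10 were 0.40 (SE 0.22) for Sox12 and 0.38 (SE 0.32) for Gap43, and Sox4 and Sox11 were at 0.24 (SE 0.26) and 0.21 (SE 0.29), each with an adjusted p of 1.00 from limma. Sox12 and Dpysl3 had every tHet library above every Cre- library, an order that 5.78% of all tested genes had. The 95% interval for Sox4, -0.30 to 0.77, and for Sox11, -0.40 to 0.82, do not reach a log2 difference of 1.

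Per kilobase of exon, the order of the levels in Cre- was Dpysl3 (69.1 CPM per kb), Tubb3 (59.0), Stmn1 (50.8), Gap43 (20.6), Sox4 (15.8), Crmp1 (10.8), Stmn2 (10.5), Sox12 (6.82), Sox11 (0.787) and Dcx (0.713). Only the steps from Stmn1 to Gap43, from Stmn2 to Sox12 and from Sox12 to Sox11 had no overlap between the Cre- libraries of neighbouring genes on this scale. In Tet tcKO, Sox4 was at 40.9 CPM per kb, next to Gap43 at 38.9, and Sox11 at 2.61 was above Dcx at 0.848 with no overlap between libraries. The SoxC order Sox4, Sox12, Sox11 was the same in all genotypes.

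Genes with a pattern most like Sox4 over the 9 libraries, by Pearson's r of log2(CPM + 0.5), were Hap1 (0.990), Gsg1l (0.987), Marcksl1 (0.985), Prex1 (0.983) and Pak6 (0.983). Most like Sox11 were Klf3 (0.985), Gm26709 (0.983), Nbeal2 (0.983), Klhl23 (0.981) and Lmo2 (0.980), and no gene was on both lists. All of these points share the same libraries and depths, and the difference between genotypes enters every r. Lmo2, a LIM-only cofactor, had the largest log2 fold change of them against Cre-, 2.59, with 2.63 to 4.26 CPM in the 6 control libraries and 39.8, 15.9 and 14.1 in Tet tcKO. Sox4 and Sox11 correlated with each other at 0.919, and Sox4 with Gap43 at 0.801, Stmn1 at 0.723, Dcx at 0.192 and Dpysl3 at 0.155.

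None of the nearest tested neighbours of the SoxC genes on the chromosome was called higher against Cre- (limma), beside 2.03% of all tested genes. Nothing is read from this, since so few genes are called at all. The nearest tested genes of Sox4 are noncoding RNA genes 63.3 and 60.7 kb away, 2610307P16Rik (log2 fold change against Cre- 0.23, SE 0.33) and A330102I10Rik (-0.59, SE 0.32), neither called. Beside Sox11, the lincRNA gene Gm9866, 174 kb away, went the other way: 7.48, 4.64 and 5.54 CPM in Cre-, 5.40, 4.05 and 6.77 in tHet, and 0.653, 2.97 and 1.51 in Tet tcKO, a log2 fold change of -1.65 (SE 0.38, adjusted p 0.00809, limma) against Cre-. Gm9866 was singled out after its values were seen, and its call held in 10 of 20 other settings, with adjusted p from 0.000888 to 0.0793 over them; among the lost calls were TMM scaling (0.0201), edgeR (0.0293) and the totals without CT010467.1 (0.0259). On the other side of Sox11, Rps7, 1288 kb away, was at -0.36 (SE 0.25) and was not called. The nearest tested neighbours of Sox12, Nrsn2 and Zcchc3, were at -0.11 and -0.34. The Sox4 exon shares 2616 bases with Gm26735, a lincRNA gene on the opposite strand that was not analysed here, and since the strand setting of the counting is not given in the sources used here, reads of the pair cannot be told apart.

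Of 16 other Sox genes listed, 11 were tested. As background for this and the following lists, 2.03% of all tested genes were called higher and 1.57% lower in Tet tcKO versus Cre-. Versus tHet these shares were 1.39% and 1.61%, and the all-gene medians were 0.00 and -0.06. Of the 11 other Sox genes, 1 was called higher and 0 lower against Cre-, and their median log2 fold change was 0.30. The called gene was Sox7, a SoxF factor best known from endothelium: it was 0.235, 0.509 and 0.473 CPM in Cre-, 0.720, 0.104 and 0.332 in tHet, and 4.16, 5.67 and 1.75 in Tet tcKO, a log2 fold change of 2.16 (SE 0.39, adjusted p 0.00108, limma) against Cre- and 2.24 against tHet. By edgeR on recovered reads it was 3.18 against Cre-. The endothelial markers Cldn5, Pecam1 and Cdh5 had 0 of 3 called, but the genes differed among themselves: against Cre-, Cldn5 was at 0.95 (95% interval 0.07 to 1.83), Cdh5 at 0.97 (0.18 to 1.75, every Tet tcKO library above every Cre- library) and Pecam1 at -0.31 (-0.92 to 0.29). Their summed level, most of it Pecam1, was 11.5 to 13.0 CPM in Cre-, 9.90 to 19.0 in tHet and 9.87 to 17.8 in Tet tcKO, and their part in the Sox7 value was not tested. The 2 most abundant others, Sox5 and Sox9, a SoxD gene and a glial and progenitor SoxE gene, were at 0.69 (SE 0.25, adjusted p 0.121) and 0.70 (SE 0.22, adjusted p 0.0745). Sox6, another SoxD gene, which was above Sox9 in mean CPM in both control groups, was at -0.25 (SE 0.23). With the replicate number as a block in the 6 libraries compared, a second gene, Sox13, was called higher (1.04, adjusted p 0.00436). Versus tHet, 1 of 11 was called, again Sox7, and in tHet versus Cre- 0 were.

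Relatives of the cytoskeletal genes gave 2 called of 18 tested in Tet tcKO versus Cre-, both higher, beside 2.03% of all tested genes called higher. The list median was 0.33, beside 0.00 over all tested genes. Tubb2b, a beta-tubulin of migrating neurons, was 24.1, 15.3 and 22.4 CPM in Cre-, 19.3, 22.6 and 26.9 in tHet, and 89.4, 38.7 and 38.2 in Tet tcKO (log2 fold change 1.31, SE 0.29, adjusted p 0.00673, limma). Marcksl1, a membrane and actin binding protein gene, was 62.9, 44.0 and 57.4 CPM in Cre-, 48.4, 72.6 and 73.2 in tHet, and 167, 97.8 and 93.8 in Tet tcKO (1.08, SE 0.25, adjusted p 0.00918). Both patterns resemble that of Sox4, with library 1 highest, and both calls were lost under TMM scaling (adjusted p 0.0197 and 0.0195), upper-quartile scaling (0.0138 and 0.0128) and edgeR (0.0184 and 0.0209). Against tHet and in tHet versus Cre-, 0 of 18 were called by limma. With DESeq2, 2 were called against tHet. With the replicate number as a block in the 6 libraries of Tet tcKO and Cre-, Tubb6 was also called higher (1.15, adjusted p 0.00122, limma). Tubb2b and Marcksl1 stayed called there.

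Of 15 further genes of new neurons, 0 were called by limma in Tet tcKO versus Cre-, with a median log2 fold change of 0.19, and 1 was called by DESeq2. With the replicate block in the 6 libraries compared, 1 was called, Nnat, an imprinted proteolipid gene (1.15, adjusted p 0.000106). The most abundant of them were Map1b, a microtubule-associated protein gene (-0.02, SE 0.33), and Ncam1, a cell adhesion gene (-0.06, SE 0.28). Among 10 genes of mature neurons, 0 were called against Cre- and the median was -0.22. With that block the neurofilament gene Nefh was called lower (-1.07, adjusted p 0.000709). The abundant synaptic vesicle and release genes Syt1 and Snap25 were at -0.21 (SE 0.31) and -0.10 (SE 0.30). Versus tHet, 1 was called lower, again Nefh, with 299, 194 and 456 CPM in tHet and 113, 156 and 99.7 in Tet tcKO (log2 fold change -1.30, SE 0.27, adjusted p 0.00455). That call was lost with CT010467.1 out of the totals (-1.15, adjusted p 0.0162), under TMM (adjusted p 0.0280) and upper-quartile scaling (0.0172) and by edgeR (0.0198).

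**Figure D4:**
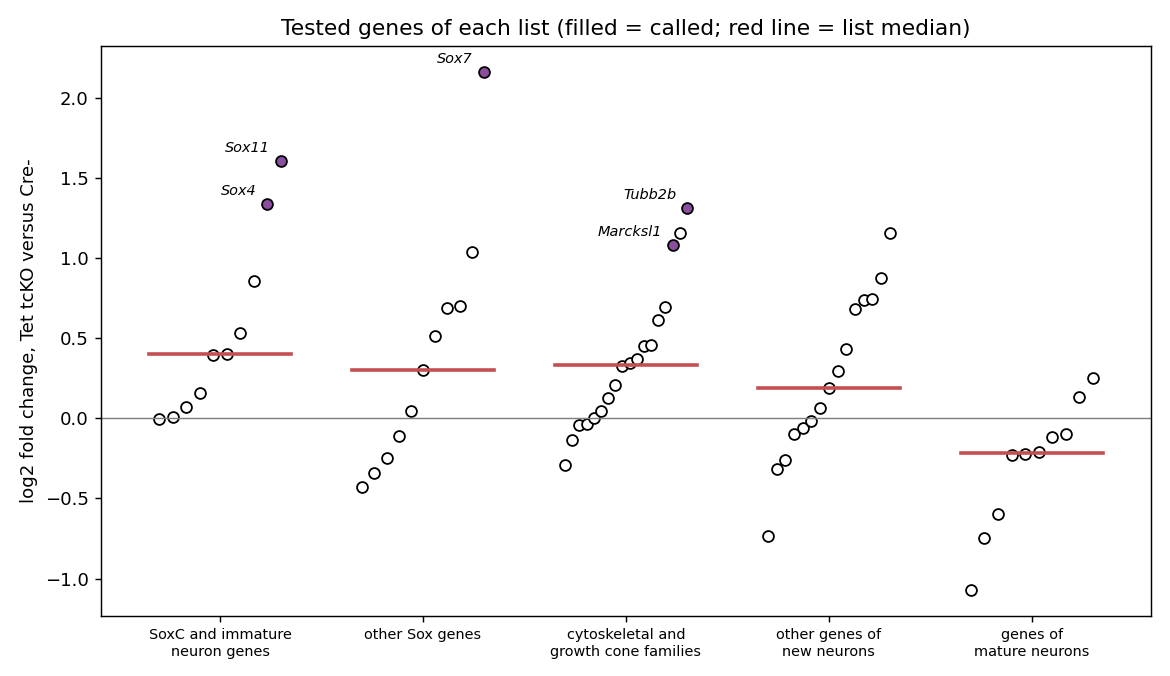
Each circle is the log2 fold change in Tet tcKO versus Cre- of 1 tested gene, sorted within its list; filled circles were called and are named, and red lines are list medians. The called genes are Sox4, Sox11, Sox7, Tubb2b and Marcksl1, and the median falls from 0.40 in the SoxC and immature neuron genes, which were chosen with these values known, to -0.22 in genes of mature neurons. The other lists were also chosen with earlier results of these data known. Against tHet, not plotted, the medians were 0.267 for the SoxC and immature neuron genes, 0.538 for other Sox genes and 0.465 for the cytoskeletal families. They were 0.167 for other genes of new neurons and -0.139 for genes of mature neurons.

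Cell type markers moved in the same libraries as Sox4 and Sox11. The 4 rod markers read here (Nrl, Nr2e3, Gnat1, Cnga1) were all called lower in Tet tcKO against both controls, their summed level being 7371 to 8921 CPM in Cre-, 6948 to 8179 in tHet and 500.4 to 2174 in Tet tcKO. All 5 cone markers (Arr3, Opn1sw, Gnat2, Rxrg, Gngt2) were called higher against both, from 283 to 378 CPM in Cre- and 339 to 364 in tHet to 887 to 1353 in Tet tcKO. The library with the most Sox4, Sox11 and Gap43, Tet tcKO 1, had the lowest summed level of rod markers, 500.4 CPM against 2174 and 1074 in libraries 2 and 3. Library 3 had less of the rod markers than library 2 but also less Sox4 (152 against 158 CPM), Sox11 and Gap43. Its CT010467.1 reads lower all of these values, and with them left out Sox4 was 213 CPM in library 3 and 158 in library 2. Since CPM are shares of a library, less rod RNA leaves a larger share to other genes, and the part of this in the SoxC values was not tested.

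Markers of cells in which the SoxC and growth cone genes are known were also read. The lowest Tet tcKO sum of each list from here on was that of library 3, whose CPM are lowered by its CT010467.1 reads. Of the 6 ganglion cell markers, 0 were called against Cre- and 1, Sncg, was called lower against tHet (-1.56, adjusted p 0.00365, limma). Summed levels were 401 to 587 CPM in Cre-, 385 to 674 in tHet and 247 to 528 in Tet tcKO. Against Cre-, the log2 fold change was -1.29 for Sncg (adjusted p 0.0137, limma) and -0.50 for Thy1. For Slc17a6, Pou4f2, Rbpms and Pou4f1 it ran from -0.16 to 0.11. Amacrine markers had 1 of 5 called lower against both controls, Slc6a9, with Cre- at 536 to 634 CPM, tHet at 446 to 601 and Tet tcKO at 410 to 849. The list was mixed. Against Cre-, the log2 fold change was 0.86 for Gad2, 0.45 for Tfap2a, 0.29 for Tfap2b, -0.32 for Gad1 and -1.25 for Slc6a9. Of the 6 markers of dividing progenitors 3 were tested, and 2, Mki67 and Top2a, were called higher against Cre- and 0 against tHet. Against tHet, Mki67 was at 1.50 (adjusted p 0.01004, limma), Top2a at 1.31 (0.0190) and Sfrp2 at 1.26 (0.0196). The summed level of the 6 was 1.59 to 1.96 CPM in Cre-, 3.02 to 4.26 in tHet and 9.03 to 15.2 in Tet tcKO. Mki67 was 0.353, 0.382 and 0.405 CPM in Cre-, 1.15, 1.35 and 2.42 in tHet, and 7.84, 4.35 and 4.46 in Tet tcKO.

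The remaining marker lists were mixed. Microglia markers had 1 of 5 called higher against Cre-, Cx3cr1, and 0 against tHet, with summed levels of 14.1 to 19.0 CPM in Cre-, 19.3 to 28.1 in tHet and 24.0 to 48.5 in Tet tcKO. Bipolar markers had 1 of 5 called higher against both controls (Cabp5), and 2 lower against Cre- (Trpm1, Prkca) that were not called against tHet (adjusted p 0.0106 and 0.0154). Müller glia markers had 1 of 5 called higher (Apoe) and 2 lower (Rlbp1, Glul) against both. Horizontal cell markers had 0 of 4 called against either control, and of 4 pigment epithelium markers Rpe65 was called lower against both and Ttr against tHet. No marker of any list was at 0 in all libraries, and the part of these markers in the SoxC values was not tested.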

How the data were processed

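Bulk RNA-seq of P21 retinas was used for 9 libraries, 3 per genotype, grouped by the sample labels. Nothing in the labels says that libraries shared an animal, and equal replicate numbers are not said to mark a shared litter or day. From the data, deviations from the group means correlated positively in every same-numbered pair of Cre- with Tet tcKO (0.56, 0.35 and 0.15). This did not hold for tHet with Cre- (-0.35 to 0.36) or with Tet tcKO (-0.30 to 0.27). Differently numbered pairs of different genotypes ran from -0.57 to 0.50, with Cre- library 2 and Tet tcKO library 3 at 0.23. Pairing was thus not shown, and Tet tcKO versus Cre- was also fitted with a replicate block as an alternative only. The authors removed ribosomal RNA, prepared stranded libraries (SMARTer Stranded Total RNA) and sequenced 1 pool. Per the submitters' processing notes and methods, reads were trimmed (Trim Galore 0.6.7), aligned to mm10 (STAR 2.7.0f) and counted on genes (HTSeq 0.11.2). The annotation release and strand setting are not given in the sources used here. The authors deposited CPM values for 55487 genes, scaled by plain library totals, beside their own edgeR comparisons (log2 fold change, average level, p-value, false discovery rate and call), which were not used.

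Of the positive values, 100% were whole multiples of 1 read (relative tolerance 1e-4), so reads were recovered (9627927 to 21108256 per library). Floors and read numbers cover counting error only. A gene was tested if 3 or more libraries reached 0.5 CPM (21330 genes). Limma 3.58.1 (R 4.3.3, eBayes with trend) was fitted to log2(CPM + 0.5), all 9 libraries in 1 fit, with Benjamini-Hochberg adjustment. Fold changes on this scale understate the change of low genes. With 3 libraries per group, the spread may hold technical and biological parts. Alternatives were pseudocounts, filters, TMM and upper-quartile scaling, CT010467.1 left out, edgeR 4.0.16 and DESeq2 1.42.0 on recovered reads, a replicate block, fewer libraries and other thresholds. The tests were tested on simulated data. The members, gene lists and markers were chosen with earlier results of these data known. All members are named, and 1 marker of the lists is not reported here. Of each other list up to 6 called genes were named by size of change, or, with fewer than 2 called, also the 2 most abundant. For Sox4 and Sox11 the 5 genes most alike with a mean of at least 1 CPM were named. Sox6, Sox13, Tubb6, Nnat and Nefh were named after their values were seen. Positions are from GENCODE, matched by identifier for all 10 genes, and promoters from RefSeq (GRCm38.p6). Methylation, single exons and single nuclei were not analysed here. Figures used matplotlib in Python.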

Additional observations from a re-analysis of the deposited data

How the results depend on the processing

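Between 20 and 22 alternatives, beside 1 added later, were run for each result. Of 600 member fold changes under the former, 563 kept their call or, without one, moved by no more than 1 SE, 11 lost a call, 7 gained a call and 19 moved by more without a call, and no called value changed sign. Uncalled values near 0 did change sign, in 7 of 20 alternatives for Crmp1 and 4 of 20 for Tubb3 against Cre-.

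Called members numbered 2 against Cre-, 1 against tHet and 0 in tHet versus Cre-. Without the filter on low values they numbered 1, 0 and 0. Against tHet they numbered 2 without CT010467.1, by DESeq2, with the replicate block, with only the 6 libraries compared and at an adjusted p under 0.05. Leaving out 1 library gave 0 to 2 against Cre-, 0 to 2 against tHet and 0 in tHet versus Cre-.

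All genes called numbered 768, 640 and 9 in the 3 comparisons. Without the filter they were 417, 351 and 1, and at an adjusted p under 0.05 they were 1156, 1104 and 20. Against tHet they were 1046 by DESeq2, 1125 with the replicate block and 1013 with 6 libraries. In tHet versus Cre- they were 1 under TMM, upper-quartile scaling, without CT010467.1, by edgeR and with 6 libraries, and 40 by DESeq2 and with the block. Leaving out 1 library gave 331 to 982, 252 to 973 and 0 to 17. Without CT010467.1 the split against Cre- was 613 higher and 222 lower in place of 434 and 334, and against tHet 427 and 215 in place of 297 and 343, since that scaling raises 1 Tet tcKO library. TMM gave 361 higher and 307 lower against tHet.

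Among other Sox genes, the 1 called against Cre- became 0 without the filter and 2 by DESeq2. Against tHet it became 2 at a pseudocount of 0.1, under TMM, by edgeR, by DESeq2 and with no fold-change threshold, and 3 without CT010467.1. Leaving out 1 library gave 0 to 1 and 0 to 3. For the cytoskeletal families, the 2 called against Cre- became 1 at a pseudocount of 0.1 and 0 without the filter, under TMM, upper-quartile scaling and edgeR (leaving out 1 library, 0 to 2). The 0 against tHet became 1 without CT010467.1, by edgeR, with the replicate block, with 6 libraries and at an adjusted p under 0.05, and 2 by DESeq2 (0 to 1). For other genes of new neurons, the 0 against Cre- became 1 by DESeq2, with the block, with 6 libraries and at 0.05, and against tHet 1 with the block (0 to 1 for both). For genes of mature neurons, the 0 against Cre- became 1 by DESeq2, with the block, with 6 libraries and at 0.05 (0 to 1). The 1 against tHet became 0 without the filter, under TMM, upper-quartile scaling, without CT010467.1 and by edgeR, 2 by DESeq2 and with 6 libraries, and 3 with the block and at 0.05 (0 to 2). In tHet versus Cre- these lists had 0 calls under every setting. Apart from the choices that remove a library or CT010467.1, change the filter or change the threshold, the cause was not tested.

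Same-numbered pairs all correlated positively for Cre- with Tet tcKO only. Differently numbered pairs reached 0.50, so pairing by replicate number was not shown. With the block in all 9 libraries, all genes called numbered 1127 against Cre-, and Sox4 (log2 fold change 1.10) was called against tHet. A block in the Cre- and Tet tcKO libraries alone was chosen after seeing the data. This block gave 1507 (830 higher, 677 lower), 2 other Sox genes, 1 other gene of new neurons and 1 gene of mature neurons. Among the cytoskeletal families it added Tubb6 to Tubb2b and Marcksl1, and the member calls were as before. The block leaves 2 residual degrees of freedom per gene. Low values limit Sox11 and Dcx most, at 81 to 507 and 98 to 212 reads per library.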
